A study of Mus musculus with 45 samples.

Results

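Enzymes that make or use asparagine, glutamine, glutamate and proline were followed in mouse mammary tumour cell lines. They are Asns, Glul, Glud1, Got1, Got2, Gpt2, Pycr1, Aldh18a1 and Prodh, and they were chosen by name for the pathway they belong to, with earlier results of these data known. These are 9 of the 28454 genes listed, and all 9 were measured in each of the 45 libraries and passed the filter on low counts in every comparison.

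Glutamate stands at the centre of this group. Glul (glutamine synthetase) turns glutamate into glutamine, and Asns (asparagine synthetase) takes an amide group from glutamine to make asparagine from aspartate. Got1 and Got2 are the cytosolic and mitochondrial aspartate aminotransferases, Gpt2 is the mitochondrial alanine aminotransferase, and Glud1 (glutamate dehydrogenase) interconverts glutamate and 2-oxoglutarate in mitochondria. Aldh18a1 and Pycr1 carry out early and final steps of proline synthesis from glutamate, and Prodh starts proline breakdown. Several genes of this kind, Asns in particular, are known targets of ATF4, a transcription factor that cells translate more when an amino acid runs short. Glutamate and cysteine are both substrates of glutathione synthesis.

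Polyadenylated RNA was sequenced from 15 groups of 3 cultures each. MYAZ16.1e, MYAZ12.3i and MYAZ6.6g come from mammary tumours of mice that carry MYC under the mammary MMTV promoter, and Myc310 is a single line from such a mouse with several tumours. LM1, LM2 and LM3 were taken from lungs of mice bearing Myc310 tumours, and LM1-LM, LM2-LM and LM3-LM from lungs at the next round, starting for LM1-LM from injected LM1 cells. All 10 lines were sampled in control medium, and MYAZ16.1e, Myc310, LM1 and LM1-LM also after 6 h in medium without cysteine and cystine. Whether cultures of the 6 lines that were not deprived had their medium renewed like the others is not certain from the sources used here, and its part in the differences between lines was not tested. A further group, labelled MYAZ12_3i_NDI1, was sampled in control medium only, and beyond that name its labels describe no change. The transgene is thus shared by all groups, controls included, and the LM and LM-LM lines descend from 1 line. The submitters call the 3 cultures of a line technical replicates, so p-values between media measure the spread between cultures of a line.

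Counts on genes ranged from 19517859 to 29019988 per library, with a median of 22899900. Levels are given as CPM (the share of a library's counts, scaled to a common total by TMM over the 45 libraries) and differences as log2 fold changes with their standard error (SE). Tests are edgeR's quasi-likelihood tests, p-values are adjusted after Benjamini and Hochberg over all genes tested, and the threshold is 0.05. Among markers of mammary epithelium, the keratins Krt8 (217 to 1731 CPM), Krt18 (94.0 to 550.0 CPM) and Krt7 (2.44 to 84.3 CPM) were present in every library. By contrast, Epcam, Cdh1, Krt5, Krt14 and Cldn4 did not exceed 1.13 CPM. The summed epithelial markers lay between 318 and 1297 CPM in MYAZ and 1348 and 1581 CPM in Myc310. In LM libraries they lay between 1099 and 2088 CPM, and in LM-LM libraries between 1012 and 2359 CPM. Summed leukocyte markers reached at most 1.38 CPM in any library. Summed endothelial markers lay between 3.52 and 6.56 CPM in MYAZ and between 0 and 0.911 CPM in libraries of the Myc310 lineage. Of these, Kdr reached 6.36 CPM, whereas Pecam1, Cdh5 and Tek did not exceed 0.718 CPM in any library. Summed fibroblast markers lay between 7.46 and 98.1 CPM in MYAZ, 1.70 and 2.81 CPM in Myc310, 10.5 and 125 CPM in LM and 26.9 and 217 CPM in LM-LM libraries. The fibroblast markers did not move together. Col3a1, Pdgfra and Pdgfrb reached 199, 58.3 and 38.5 CPM, whereas Col1a1, Col1a2, Dcn and Lum did not exceed 3.92 CPM in any library. Myc mRNA held 409 to 602 CPM in MYAZ, 1037 to 1356 CPM in Myc310, 568.002 to 1177 CPM in LM and 420.2 to 1189 CPM in LM-LM libraries. The part of these levels in the differences between lines was not tested. In RNA of whole cultures, fewer cells that express a gene and less RNA per cell cannot be told apart.

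On the GRCm38 assembly, Asns lies at chr6:7675169-7693254 on the minus strand, Glul at chr1:153899944-153909723 on the plus strand and Glud1 at chr14:34310727-34345265 on the plus strand. Got1 (chr19:43499752-43524605) and Aldh18a1 (chr19:40550257-40588463) share a chromosome and both lie on the minus strand. Got2 (chr8:95864134-95888547, minus strand) and Gpt2 (chr8:85492576-85527560, plus strand) also share a chromosome. Pycr1 spans chr11:120635712-120643769 and Prodh chr16:18060357-18090203, both on the minus strand. These boundaries are those of GENCODE release M21.

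All 9 genes have an entry in the RefSeq promoter table (GRCm38.p6), which covers 250 bases before and 50 bases after a start site. Each was searched on both strands for TGATGNAA, the letters of a C/EBP-ATF response element through which ATF4 can act, and for CACGTG, the E-box letters that MYC can bind. The former occurred in 3.97% of 32851 promoters and the latter in 7.15%. A match was found in 4 members, Asns, Pycr1, Got1 and Aldh18a1. All matches found are shown, as 30 bases of the gene's own strand. The response element letters occurred in Asns, Pycr1 and Got1, and the E-box letters in Aldh18a1. Gpt2, the member that rose most in deprived medium, had a match to neither motif. The motif letters are in capitals, and no motif overlaps the other.
Asns, chr6:7693214-7693243, minus strand: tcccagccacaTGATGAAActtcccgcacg
Pycr1, chr11:120643833-120643862, minus strand: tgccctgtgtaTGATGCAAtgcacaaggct
Got1, chr19:43524689-43524718, minus strand, with the motif on the opposite strand: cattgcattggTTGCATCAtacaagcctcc
Aldh18a1, chr19:40588505-40588534, minus strand: ggagggggccgcCACGTGgagcgtgggcgc
The response element letters began 23 bases before the RefSeq start of Asns, 103 bases before that of Pycr1 and 102 bases before that of Got1, and the E-box letters 59 bases before that of Aldh18a1. The Asns site lies 22 bases inside the gene as GENCODE draws it. A match of letters describes the sequence only, and no binding was measured.

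The first comparison asks how the enzymes respond when cysteine and cystine are withheld. Asns, Gpt2, Aldh18a1, Pycr1 and Got1 rose in all 4 lines tested, Glul fell in all 4, and Prodh fell in Myc310, LM1 and LM1-LM. Glud1 and Got2 differed by at most 0.26 on the log2 scale. The 4 enzymes for asparagine, alanine and proline went up by between 3.85-fold and 18.01-fold, and Got1 by at most 2.17-fold. Enzymes of glutamine synthesis and proline breakdown went down.

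In Asns, the MYAZ16.1e cultures held 158, 158 and 158 CPM in control medium and 721, 732 and 687 CPM without cysteine and cystine. The Myc310 cultures held 165, 159 and 159 CPM in control and 849, 856 and 845 CPM in deprived medium. Control and deprived cultures were far apart in both lines. In LM1 the values were 178, 167 and 176 CPM against 1025, 1014 and 1032 CPM, and in LM1-LM 182, 189 and 196 CPM against 1078, 1077 and 1034 CPM. Each deprived culture of the lines from lungs held at least 1014 CPM, a level no MYAZ16.1e or Myc310 culture reached. MYAZ16.1e had a log2 fold change of 2.17 ± 0.028 (SE) and Myc310 one of 2.39 ± 0.028, with adjusted p values of 1.35e-31 and 1.03e-32. The rise was 2.595 ± 0.029 in LM1 (adjusted p = 6.33e-34), and LM1-LM reached 2.53 ± 0.028 (adjusted p = 6.70e-34).

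Gpt2 showed the largest rise of the 9 genes. Its control cultures held 19.1, 20.1 and 20.1 CPM in MYAZ16.1e, and the deprived ones 233, 228 and 232 CPM. In Myc310 the same cultures stood at 26.1, 26.7 and 25.7 CPM and at 323, 317 and 323 CPM. In both lines the media were far apart, with no overlap. LM1 cultures went from 17.7, 21.0 and 20.5 CPM to 345, 349 and 350.0 CPM, and those of LM1-LM from 20.4, 22.6 and 21.5 CPM to 347, 340 and 341 CPM. MYAZ16.1e showed an 11.6-fold rise (log2 3.54 ± 0.037) and Myc310 a 12.2-fold rise (3.60 ± 0.035). LM1 reached 18.01-fold (4.17 ± 0.037) and LM1-LM 16.4-fold (4.03 ± 0.036). Among 13400 genes ordered by fold change, Gpt2 stood at place 60 from the top in MYAZ16.1e and at 103, 99 and 101 in the other lines.

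Aldh18a1, which makes the shared precursor of proline and ornithine from glutamate, held 71.6, 76.0 and 76.0 CPM in control MYAZ16.1e cultures and 322, 323 and 323 CPM in deprived ones. In Myc310 it went from 107, 103 and 109.5 CPM to 539, 542 and 557 CPM. The groups were separated without overlap in either line. LM1 cultures held 102, 101 and 104 CPM against 613, 606 and 614 CPM, and LM1-LM cultures 108, 109 and 104 CPM against 608, 613 and 610.1 CPM. The log2 fold changes, with lines in the same order, were 2.10 ± 0.027, 2.35 ± 0.026, 2.62 ± 0.026 and 2.55 ± 0.026.

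Pycr1, the mitochondrial reductase that completes proline synthesis, was a low gene in control medium, at 58 to 228 counts per library in the 4 lines. MYAZ16.1e cultures rose from 7.21, 6.90 and 7.75 CPM to 30.5, 29.5 and 25.2 CPM, and Myc310 cultures from 5.17, 5.02 and 4.21 CPM to 28.96, 27.2 and 30.2 CPM. In LM1 it started at 3.56, 3.16 and 3.66 CPM and reached 24.6, 25.3 and 27.2 CPM, and LM1-LM cultures rose from 4.48, 4.53 and 2.70 CPM to 23.1, 24.7 and 22.6 CPM. Deprived cultures of the 4 lines thus lay between 22.6 and 30.5 CPM, and control cultures between 2.70 and 7.75 CPM. The log2 fold changes were 1.95 ± 0.099, 2.57 ± 0.11, 2.93 ± 0.12 and 2.61 ± 0.11.

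Got1 rose in every line with no overlap between media. Its deprived cultures held 128 to 136 CPM in MYAZ16.1e against 82.9 to 89.3 CPM in control, and 241 to 256 CPM in Myc310 against 128.5 to 140.5 CPM. In LM1 they held 291 to 293 CPM against 140.0 to 141 CPM, and in LM1-LM 308 to 318 CPM against 144 to 155 CPM. MYAZ16.1e showed a 1.53-fold and Myc310 a 1.84-fold rise, beside 2.13-fold for LM1 and 2.17-fold for LM1-LM. Got2, its mitochondrial counterpart, went the other way in MYAZ16.1e (log2 −0.13 ± 0.022, adjusted p = 1.22e-05) and in Myc310 (−0.13 ± 0.022, adjusted p = 1.05e-05). In LM1 and LM1-LM the control and deprived cultures of Got2 overlapped, at 411 to 425 CPM, and the log2 differences of 0.04 and 0.02 missed the threshold (adjusted p = 0.106 and 0.43). In LM1-LM the mean level was 423 CPM in control and 418 CPM in deprived cultures, so that the sign of its difference depended on the scaling, and it was also below 0 with RLE scaling and DESeq2. Upper-quartile scaling turned the values to −0.04 in LM1 and −0.06 in LM1-LM, and the second then passed the threshold as lower (adjusted p = 0.0118).

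**Figure D1:**
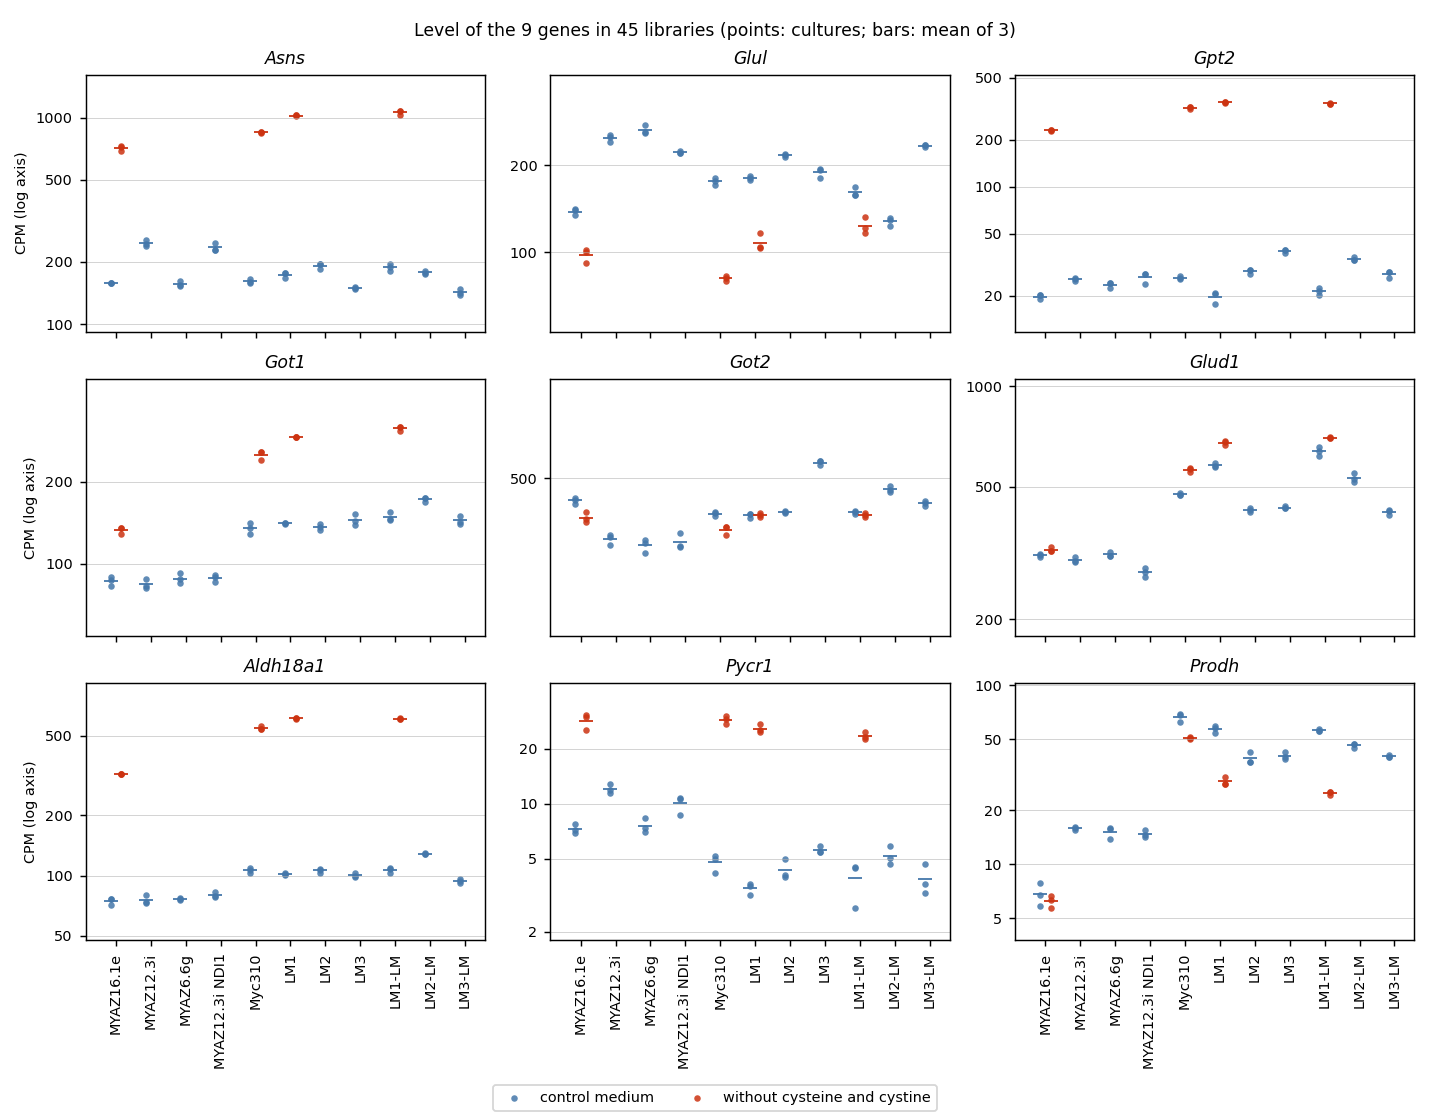
Level of each enzyme in every culture, as CPM on a log axis, by line, with blue points for control medium, red points for 6 h without cysteine and cystine, and bars for the mean of 3 cultures. Red points stand far above blue ones for Asns, Gpt2, Aldh18a1 and Pycr1, below them for Glul, and blue points of Prodh lie between 5.88 and 16.2 CPM in the MYAZ lines and between 37.5 and 69.0 CPM in the lines of the Myc310 lineage.

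Glul held 141, 139 and 134 CPM in control MYAZ16.1e cultures and 91.4, 102 and 99.9 CPM in deprived ones. In Myc310 it went from 180.2, 176 and 171 CPM to 79.5, 82.8 and 81.5 CPM, the largest fall of the 4 lines by value. All deprived cultures of either line lay below all of its control cultures. In LM1 the fall was from 183, 180.5 and 178 CPM to 103, 104 and 116 CPM, and in LM1-LM from 168, 158 and 157 CPM to 116, 121 and 132 CPM. On the log2 scale Glul fell by 0.50 (SE 0.044) in MYAZ16.1e cells and by 1.13 (SE 0.044) in Myc310 cells. In LM1 it fell by 0.71 (SE 0.043), and LM1-LM showed the smallest value, with a fall by 0.35 (SE 0.042). Glud1 rose by small steps, of log2 0.23 ± 0.022 for Myc310, 0.26 ± 0.022 for LM1 and 0.17 ± 0.022 for LM1-LM. In MYAZ16.1e its difference of 0.05 ± 0.023 missed the threshold (adjusted p = 0.076), although its 3 deprived cultures, at 319 to 328 CPM, lay above the control cultures at 308 to 314 CPM.

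Prodh, which oxidises proline in mitochondria, held 7.92, 6.76 and 5.88 CPM in control and 5.67, 6.67 and 6.30 CPM in deprived MYAZ16.1e cultures. These overlapped, and the log2 difference of −0.12 ± 0.097 did not pass (adjusted p = 0.311). Leaving out replicate 1 turned it to 0.04. Myc310 cultures held 68.0, 69.0 and 62.8 CPM against 50.1, 51.7 and 51.0 CPM. In LM1 they held 54.0, 58.0 and 59.6 CPM against 28.2, 30.8 and 28.3 CPM, and in LM1-LM 56.0, 57.3 and 55.6 CPM against 24.3, 25.3 and 25.2 CPM. No deprived culture of these 3 lines reached its controls, and Prodh fell by 0.40 (SE 0.051), 0.94 (SE 0.055) and 1.14 (SE 0.056) on the log2 scale. Dgcr6, which overlaps Prodh on the opposite strand and whose reads could be mixed with it if counting ignored strand, differed by −0.12, −0.15 and −0.07 in the same lines, none past the threshold. In MYAZ16.1e it fell by 0.17 (adjusted p = 0.0374), from 26.4 ± 0.609 to 23.6 ± 1.25 CPM, levels above those of Prodh there.

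**Figure D2:**
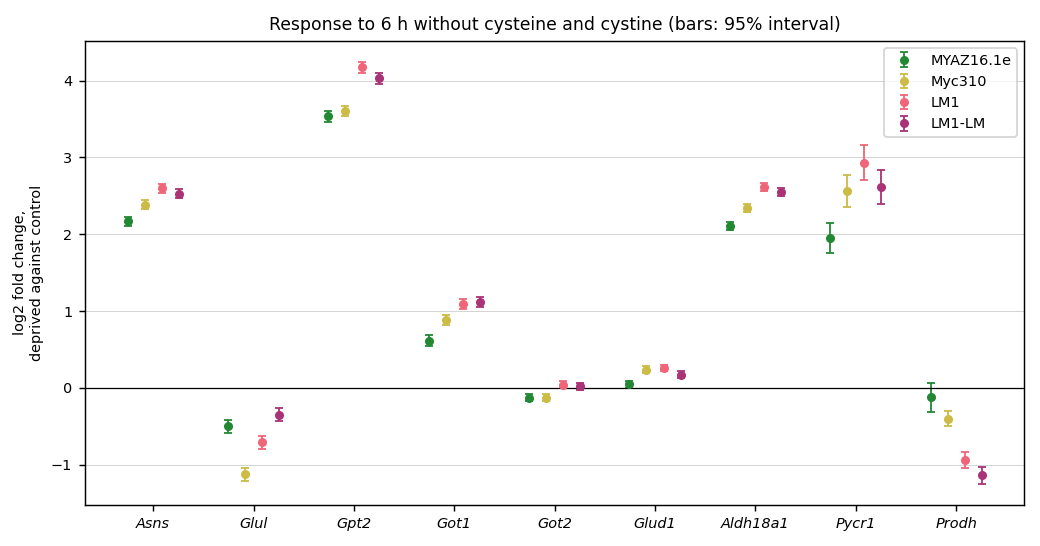
Log2 fold change of each enzyme in deprived against control medium (vertical axis), with a colour for each of the 4 lines deprived, with bars for the 95% interval of the fitted value. Gpt2 stands highest, between 3.54 and 4.17, Got2 and Glud1 lie near 0, and Prodh lies at −0.12 in MYAZ16.1e and at −1.14 in LM1-LM.

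By count, 7 of the 9 members passed the threshold in MYAZ16.1e, where 53.7% of all genes tested did. In Myc310 all 9 passed (66.8% of all genes), in LM1 8 (71.1%) and in LM1-LM 8 (72.4%). A share this high is near the background, so the counts by themselves set the members little apart. In MYAZ16.1e 5 members were higher and 2 lower, against 26.6% and 27.1% of all genes. In Myc310 6 were higher and 3 lower (32.8% and 33.9% of all genes), in LM1 6 and 2 (35.8% and 35.3%), and in LM1-LM 6 and 2 (36.5% and 35.9%). Sizes of change are given beside those of all genes as a description, since the members were chosen with results of these data known. Past the threshold and over 2-fold were 4 members in MYAZ16.1e (4.6% of all genes) and 5 in Myc310 (12.4%). LM1 had 5 such members (18.3%) and LM1-LM 6 (20.1%). The median absolute log2 fold change of the members was 0.615, 1.126, 1.091 and 1.138 in the 4 lines, beside 0.228, 0.368, 0.454 and 0.479 over all genes tested.

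The next comparison asks whether the response of a more metastatic line differed from that of MYAZ16.1e, tested as an interaction of line and medium. The 3 tests share the MYAZ16.1e libraries and so are not independent of each other. In LM1 the response was stronger for Asns (by 0.43 ± 0.039 on the log2 scale), Gpt2 (0.64 ± 0.058), Aldh18a1 (0.51 ± 0.038), Pycr1 (0.98 ± 0.16) and Got1 (0.48 ± 0.048). In LM1-LM the same enzymes exceeded MYAZ16.1e by 0.36 ± 0.039, 0.50 ± 0.057, 0.45 ± 0.037, 0.66 ± 0.16 and 0.50 ± 0.048. For Myc310 the differences were 0.22 ± 0.039 for Asns, 0.24 ± 0.037 for Aldh18a1, 0.62 ± 0.15 for Pycr1 and 0.27 ± 0.048 for Got1, all past the threshold. That of Gpt2 in Myc310 was not (0.07, 95% interval −0.04 to 0.18, adjusted p = 0.346).

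Enzymes that fell also differed between lines. In LM1 Prodh fell further than it did in MYAZ16.1e, by 0.82 ± 0.11 (adjusted p = 3.38e-07), and by 1.01 ± 0.11 in LM1-LM (adjusted p = 5.66e-09). In Myc310 it fell further by 0.28 ± 0.11, a marginal call (adjusted p = 0.0443) that was lost without MYAZ16.1e control replicate 3 (a further fall by 0.16, adjusted p = 0.294). Glul fell further than in MYAZ16.1e by 0.62 ± 0.062 in Myc310 and by 0.21 ± 0.061 in LM1, but less far in LM1-LM (0.15 ± 0.061, adjusted p = 0.0329). The difference of Glul in LM1 was lost without replicate 2 (adjusted p = 0.128), and that in LM1-LM without replicate 2 (0.102) or 3 (0.0855) and with RLE scaling (0.0583). The differences of Glud1 were 0.19, 0.21 and 0.12 for Myc310, LM1 and LM1-LM. Those of Got2 were 0.0026, 0.17 and 0.15, of which the one for Myc310 did not pass (adjusted p = 0.972). Responses of Myc310, LM1 and LM1-LM were not tested against each other.

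In all, 7 members differed from MYAZ16.1e in their response in Myc310, where 40.3% of all genes did, 9 in LM1 (52.2%) and 9 in LM1-LM (54.8%). By size, the members had a median absolute log2 difference of 0.24 for Myc310, and all genes tested also had 0.24. For LM1 the values were 0.476 beside 0.338, and for LM1-LM 0.449 beside 0.368. The median absolute response of all genes was 0.228 for MYAZ16.1e and 0.368, 0.454 and 0.479 for these lines. A stronger response was thus not confined to the members, and whether they exceeded other genes was not tested. Upper-quartile scaling moved the share of higher responses among all called genes from 51.52% to 41.01% for LM1. For LM1-LM that share went from 51.75% to 41.65%. With it, the differences of Glud1, Got2 and Glul in LM1-LM no longer passed.

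In control medium, lines of the MYAZ subtype were compared with Myc310, LM and LM-LM. Prodh stood out, being higher in every line of the Myc310 lineage than in each MYAZ line, and Got1, Glud1 and Aldh18a1 were higher by smaller steps. Pycr1 was lower in all 3 comparisons. Asns and Glul did not pass the threshold in any of these comparisons, and Gpt2 only in LM (log2 0.34 ± 0.14, adjusted p = 0.034). In LM-LM Gpt2 missed it (0.26, adjusted p = 0.102). There it passed without LM1-LM (0.42, adjusted p = 0.0133) and in a model of the compared libraries alone (0.28, adjusted p = 0.0364).

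Prodh held 6.85 ± 1.02 CPM (SD, n = 3 cultures) in MYAZ16.1e, 15.9 ± 0.363 CPM in MYAZ12.3i and 15.2 ± 1.10 CPM in MYAZ6.6g. Myc310 held 66.6 ± 3.33 CPM, LM1 57.2 ± 2.88 CPM, LM2 39.3 ± 2.98 CPM and LM3 40.4 ± 1.84 CPM. LM1-LM, LM2-LM and LM3-LM held 56.3 ± 0.921, 46.3 ± 1.19 and 40.1 ± 0.469 CPM. No line of the Myc310 lineage overlapped a MYAZ line, and the order LM2, LM3-LM and LM3 rested on differences within the spread of their cultures. Against MYAZ, Myc310 had a log2 difference of 2.39 ± 0.21, the LM lines one of 1.85 ± 0.17 and the LM-LM lines one of 1.89 ± 0.17. The lowest values over the alternatives run were 2.09, 1.55 and 1.59, and the highest 2.61, 2.05 and 2.09. MYAZ16.1e, the line with the lowest Prodh, is also the one that was deprived. Dgcr6 on the opposite strand differed from MYAZ by 0.10, −0.15 and −0.30 in the same order, and it passed the threshold for LM-LM alone.

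Got1 line means were 83.9, 86.5 and 88.3 CPM in MYAZ, 135 CPM in Myc310, 136, 141 and 145 CPM in LM, and 144, 149 and 172 CPM in LM-LM. Glud1 line means were 301, 311 and 313 CPM in MYAZ, 474 CPM in Myc310, 425, 432 and 579 CPM in LM, and 420.3, 530.2 and 639 CPM in LM-LM. Line means of Glud1 were tightly grouped in MYAZ and more spread among the lines from lungs. For Got1 the SD of line means was 2.17 CPM in MYAZ, 4.07 CPM in LM and 15.2 CPM in LM-LM, so that only the LM-LM lines were clearly more spread. For Aldh18a1 the MYAZ lines held 74.6, 75.8 and 76.3 CPM, Myc310 107 CPM, the LM lines 100.3, 102 and 106 CPM, and the LM-LM lines 94.3, 107 and 129 CPM. The log2 differences from MYAZ, again in the order Myc310, LM and LM-LM, were 0.64, 0.71 and 0.83 for Got1, 0.62, 0.63 and 0.76 for Glud1 and 0.49, 0.45 and 0.52 for Aldh18a1.

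Pycr1 was the only member that was lower outside the MYAZ subtype past the threshold. Its line means were 7.29, 7.56 and 11.99 CPM in MYAZ, 4.80 CPM in Myc310, 3.46, 4.36 and 5.57 CPM in LM and 3.87, 3.90 and 5.20 CPM in LM-LM. The highest LM line thus stood below the lowest MYAZ line, by less than 2 CPM. The log2 differences were −0.90 ± 0.23, −0.999 ± 0.16 and −1.07 ± 0.16. The 2 proline synthesis enzymes followed here therefore differed in opposite directions in control medium, while both rose in deprived medium.

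**Figure D3:**
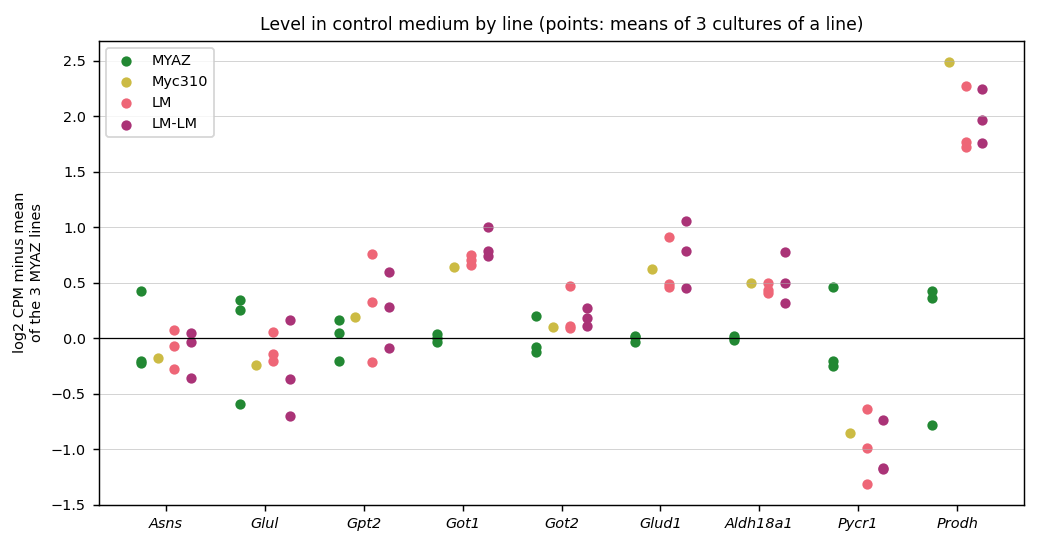
Mean log2 CPM of each line in control medium minus the mean of the 3 MYAZ lines (vertical axis), with a point for each line (mean of 3 cultures) and colours for subtypes. Points of Myc310, LM and LM-LM lie above all MYAZ points for Got1, Glud1, Aldh18a1 and Prodh and below them for Pycr1, and they mix with MYAZ points for Asns, Glul, Gpt2 and Got2.

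These tests take cultures as the unit, although lines are the replicates of a subtype. Of the 9 members, 5 passed the threshold in Myc310 against MYAZ (50.9% of all genes), 7 in LM (60.8%) and 6 in LM-LM (62.8%). These 3 comparisons share the MYAZ libraries. Counts summed per line, with 3 lines against 3, kept the calls of Prodh, Got1, Glud1, Aldh18a1 and Pycr1, with adjusted p values of 0.00411, 0.000572, 0.0183, 0.0126 and 0.0288 in LM and of 0.00338, 0.000272, 0.00784, 0.00588 and 0.0214 in LM-LM. With these sums 25.1% of all genes passed in LM and 28.1% in LM-LM. The same 5 members showed no overlap between line means in LM against MYAZ (43.5% of all genes showed none) and in LM-LM against MYAZ (43.6%), and each had an exact permutation p of 0.1 (two-sided), the smallest that 3 lines against 3 allow. Got2 (log2 0.23 in LM and 0.16 in LM-LM) and Gpt2 in LM lost their calls with sums per line, at adjusted p = 0.206, 0.331 and 0.358 and log2 differences of 0.24, 0.18 and 0.35. Of these, Got2 in LM passed with the line as a random block (adjusted p = 0.0209). Myc310 is 1 line, and its test with sums per line assumes that it varies like the other 9 lines. In that test, run after the data were seen, 8.92% of all genes passed against MYAZ, Prodh and Got1 kept their calls (adjusted p = 0.00915 and 0.00835), and Glud1, Aldh18a1 and Pycr1 lost theirs (0.0994, 0.0579 and 0.206) at log2 differences of 0.64, 0.51 and −0.88. In LM against Myc310, 0 members and 0.0125% of all genes passed with these sums. With the line as a random block in limma's voom, Glud1 and Aldh18a1 passed for Myc310 (adjusted p = 0.000739 and 0.00244) and Pycr1 did not (0.201). Myc310 and the lines derived from it are 1 lineage, which cannot be told apart from metastatic potential here.

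Single lines set some of the values that did not pass. Asns was higher in MYAZ12.3i, at 240.1 to 254 CPM, than in the other 9 lines in control medium, and without that line its differences from MYAZ of −0.22 (Myc310), −0.12 (LM) and −0.16 (LM-LM) turned to 0.03, 0.13 and 0.09. In LM-LM it passed as lower without MYAZ16.1e (−0.27, adjusted p = 0.0343) or without MYAZ6.6g (−0.27, adjusted p = 0.0348). Glul was lowest among the MYAZ lines in MYAZ16.1e (138 CPM against 248 in MYAZ12.3i and 264 in MYAZ6.6g). Without MYAZ16.1e, the differences of Glul passed the threshold, at −0.55 for Myc310 (adjusted p = 0.00748), −0.39 for LM (0.00674) and −0.58 for LM-LM (0.000191). Gpt2 and Got2 in LM were set by LM3, without which the differences of 0.34 and 0.23 became 0.08 and 0.09 and missed the threshold.

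Within the Myc310 lineage single lines differed beyond the spread of their cultures, while few differences between its subtypes passed the test. Gpt2 held 19.7 ± 1.79 CPM in LM1 and 38.7 ± 1.06 CPM in LM3, and Glul 128 CPM in LM2-LM and 233 CPM in LM3-LM. In LM against Myc310, 0 members passed edgeR's test (4.94% of all genes did), 1 member, Prodh, had an unadjusted p under 0.05, and DESeq2 called 0. The log2 difference of Prodh was −0.54 ± 0.22 (95% interval −0.97 to −0.12, adjusted p = 0.162). It passed without LM1 (−0.72, adjusted p = 0.0367, where 10.9% of all genes passed) and in a model of the compared libraries alone (−0.54, adjusted p = 0.0238, where 10.1% passed). In LM-LM against LM, again 0 members passed edgeR's test (0.768% of all genes did), 1 member, Got1, had an unadjusted p under 0.05 (log2 0.12 ± 0.040, adjusted p = 0.175), and DESeq2 called 0. Without LM3-LM, 4 members passed, namely Glul (−0.46), Glud1 (0.26), Got1 (0.17) and Aldh18a1 (0.17), beside 15% of all genes. Without LM1, Glud1 passed (0.27), beside 4.33% of all genes.

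The line labelled MYAZ12_3i_NDI1 was compared with MYAZ12.3i in control medium. NDI1 is the name of a yeast mitochondrial NADH dehydrogenase, and no such gene is listed among the mouse genes, so the label could not be checked. Glul was lower in the NDI1 line, at 221, 220.2 and 223 CPM against 241, 254 and 251 CPM (log2 −0.17 ± 0.027, adjusted p = 0.000686). Glud1 was lower as well, at 267, 278 and 285 CPM against 298, 308 and 298 CPM (log2 −0.13 ± 0.029, adjusted p = 0.00769), and this call was lost without replicate 1 or 2 (adjusted p = 0.0957 and 0.0711). Both groups were without overlap for either enzyme, and 2 of 9 members passed beside 17.4% of all genes. The other members differed by at most 0.26 on the log2 scale, that being Pycr1, which was at −0.26 (adjusted p = 0.0725).

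Levels of different enzymes can be compared per length, as CPM per kb of annotated exon. In control LM1 cultures the order was Glud1 (138 CPM per kb), Got2 (86.3), Asns (63.5), Got1 (55.3), Glul (54.3), Aldh18a1 (25.1), Prodh (7.34), Gpt2 (3.50) and Pycr1 (0.879). In deprived cultures of the same line it was Asns (374), Glud1 (161), Aldh18a1 (150.0), Got1 (115), Got2 (86.6), Gpt2 (61.7), Glul (32.4), Pycr1 (6.53) and Prodh (3.73). Asns thus passed from the third place to the first, and Aldh18a1 from the sixth to the third. Neighbours in either order differed by more than the sum of their SDs between cultures. Exon lengths cover all annotated exons of a gene, from 2.539 kb for Got1 to 7.797 kb for Prodh, and not the transcripts in use.

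Some members share sequence with pseudogenes. Windows of 50 bases were taken from the longest protein-coding transcript of each member. Of those of Got2, 32.3% also occur in another gene, Got2-ps1, which held at most 67 counts in a library where Got2 held at least 7861. For Glul the share was 14.2%, over 3 genes, with 11.3% of the windows in Glns-ps1, which held at most 211 counts while Glul held at least 1758. For Glud1 it was 8.17% over 2 genes, of which Glud-ps (4.28%) held at most 11 counts. Counts of these 3 genes could be split between copies, to the extent these levels allow, and the shares were 1.67% for Gpt2, 0.07% for Pycr1 and 0 for the others. Aldh18a1 contains a pseudogene on its own strand, Gm15801, which held at most 37 counts.

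Other enzymes of the same pathways moved mostly the other way in deprived medium. Of 44 further genes counted here for asparagine and aspartate, for glutamine and glutamate, and for proline, ornithine and arginine, 43 were in the data and 36 passed the filter. In each of the 4 lines 7 of these were higher, and 19, 23, 24 and 22 were lower with lines in the order MYAZ16.1e, Myc310, LM1 and LM1-LM. Of all genes tested, 26.6%, 32.8%, 35.8% and 36.5% were higher and 27.1%, 33.9%, 35.3% and 35.9% lower. The listed genes had a median log2 fold change of −0.171, −0.312, −0.277 and −0.329 beside 0, −0.013, −0.005 and 0 over all genes tested. The 4 tested genes counted for proline, ornithine and arginine were lower in each line.

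Bcat1, a cytosolic aminotransferase of branched-chain amino acids that yields glutamate, rose from 37.0 ± 0.674 to 131 ± 1.81 CPM in MYAZ16.1e cells, and LM1 cells went from 49.6 ± 1.51 to 192 ± 2.28 CPM. Its log2 fold changes in the 4 lines were 1.82, 1.57, 1.98 and 1.93. A pair of glutamine-using enzymes of purine synthesis fell, Ppat by 0.57, 1.27, 1.55 and 1.63 and Pfas by 0.38, 1.05, 1.33 and 1.47. Gls2, a glutaminase, fell by 0.63, 1.17, 1.56 and 1.42, and Gpt, the cytosolic counterpart of Gpt2, fell by 0.50, 0.58, 0.50 and 1.07. The aspartate and glutamate carrier Slc25a13 fell by 0.59, 0.93, 0.95 and 1.04. Gfpt2 was low (0 to 12 counts in control and 24 to 30 in deprived Myc310 cultures) and rose in 3 lines, by 1.86 in Myc310 and by 0.86 and 1.30 in LM1 and LM1-LM. Aspg, an asparaginase, was at or near the detection floor in 3 lines, MYAZ16.1e, LM1 and LM1-LM (3 to 10 counts in control and 0 to 3 in deprived cultures), and no fold is given for them. In Myc310 it went from 3.03 ± 0.135 to 1.26 ± 0.369 CPM, a log2 difference of −1.27 ± 0.30.

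**Figure D4:**
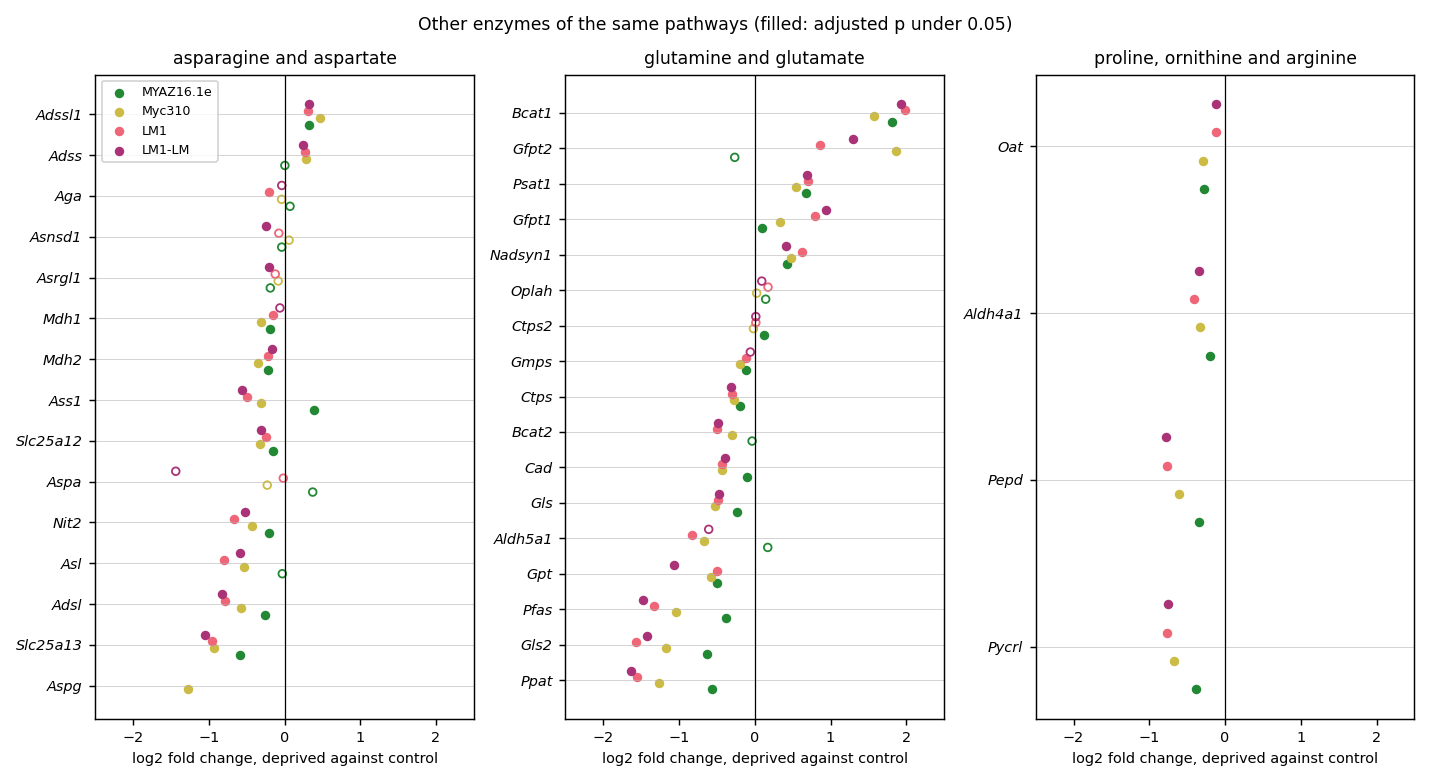
Log2 fold change in deprived against control medium (horizontal axis) of the other enzymes on the 3 lists, by line in colour, with filled points past the adjusted threshold and open points not. Points lie mostly left of 0, the 4 enzymes drawn for proline, ornithine and arginine among them, and Bcat1 is the highest of those on the glutamine and glutamate list in MYAZ16.1e, LM1 and LM1-LM. Aspg is drawn for Myc310 only.

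Across the means of the 15 groups, the genes outside the 9 whose pattern was most like that of Asns were Psph (Pearson r = 0.993), Lars (0.989), Sars (0.988), Rnf213 (0.988) and Iah1 (0.987), out of 9082 genes compared. Psph makes serine, and Lars and Sars are the cytosolic leucyl- and seryl-tRNA synthetases. Within the group, r with Asns was 0.965 for Gpt2, 0.951 for Aldh18a1, 0.917 for Pycr1 and 0.711 for Got1, −0.744 for Glul and −0.175 for Prodh. These values describe the groups, which fall into control and deprived clusters and share their libraries between genes.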

How the data were processed

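The deposited counts are whole numbers per gene, made by the authors with STAR alignment and RSEM quantification in an nf-core pipeline on GRCm38. RSEM estimates need not be whole, and how they were rounded is not given in the sources used here, nor is the strand setting, although the library kit was directional and paired-end. Each column was mapped by its label to 1 of 45 libraries.

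R 4.3.3 with edgeR 4.0.16 was used (TMM, filterByExpr, quasi-likelihood test, Benjamini-Hochberg adjustment, threshold 0.05), in 3 models: 24 libraries in 8 groups for deprivation (13400 genes), 30 control libraries with subtype only (13795 genes), and 6 libraries for NDI1 (12841 genes). Logarithms of CPM used a prior count of 2. Line means were compared with an exact permutation test. The models were also run on simulated data, and the outcome of that run is not given here.

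Alternatives were RLE and upper-quartile scaling, no filter beyond 1 count, at least 10 counts in every library, DESeq2 1.42.0, a replicate block, leaving out each replicate number or line, only the libraries compared, counts summed per line, limma 3.58.1 voom with the line as random block, all 33 control libraries for NDI1, and, chosen after seeing the data, leaving out MYAZ16_1e control replicate 3 or MYAZ12_3i control replicate 2 and sums per line with Myc310 as a single line. Named genes are the 9 members, listed pathway genes past the threshold with an absolute log2 fold change of at least 1 in a deprivation or NDI1 comparison (at most 8 per comparison), the 5 genes most correlated with Asns among genes whose mean log2 CPM is 3 or more, and markers. A listed pathway gene is not reported here and was left out of the counts. The members and lists were chosen with earlier results of these data known. Positions come from GENCODE M21 and promoters from RefSeq GRCm38.p6. The spread between cultures includes counting error, and a group with 3 counts or fewer per library was treated as at the floor.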

Additional observations from a re-analysis of the deposited data

Results flagged for a closer look

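Of 27 tests of a difference between the response of a more metastatic line and that of MYAZ16.1e (9 enzymes in 3 lines), 25 passed the threshold of edgeR's interaction test, and each is listed because the same contrast differed between lines. Of all genes tested, 40.3% passed for Myc310, 52.2% for LM1 and 54.8% for LM1-LM. With lines in the same order, the median absolute difference was 0.24, 0.338 and 0.368 over all genes and 0.24, 0.476 and 0.449 over the members. In Myc310 the log2 differences were 0.22 for Asns, −0.62 for Glul, 0.19 for Glud1, 0.27 for Got1, 0.62 for Pycr1, 0.24 for Aldh18a1 and −0.28 for Prodh. In LM1 they were 0.43 for Asns, −0.21 for Glul, 0.21 for Glud1, 0.48 for Got1, 0.17 for Got2, 0.64 for Gpt2, 0.98 for Pycr1, 0.51 for Aldh18a1 and −0.82 for Prodh. In LM1-LM they were 0.36 for Asns, 0.15 for Glul, 0.12 for Glud1, 0.50 for Got1, 0.15 for Got2, 0.50 for Gpt2, 0.66 for Pycr1, 0.45 for Aldh18a1 and −1.01 for Prodh. The 3 sets share the 6 MYAZ16.1e libraries, and MYAZ16.1e stands for the MYAZ subtype alone, since MYAZ12.3i and MYAZ6.6g were not deprived.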

How the results depend on the processing

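Over the alternatives run, 1481 of 1575 values of the 9 enzymes kept their direction and side of the threshold, 43 lost a call, 19 gained one and 32 changed sign. Of 117 results, 78 kept direction and side under all of theirs. The cause of the changes was not tested. The rises of Asns, Gpt2, Aldh18a1, Pycr1 and Got1 and the fall of Glul in deprived medium are among the 78.

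The shared replicate number did not pair the cultures, since 1 of 15 same-numbered pairs had a correlation of deviations over 0.1 (range −0.388 to 0.301) and 9 of 30 samples correlated best with their own number. A replicate block moved the count of genes in LM-LM against LM from 106 to 68 and changed 0 of the 117 calls of the members.

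In deprived medium Got2 turned to −0.0369 in LM1 and −0.0626 in LM1-LM with upper-quartile scaling, to −0.00057 in LM1-LM with RLE scaling and to −0.00040 with DESeq2, and its difference between Myc310 and MYAZ16.1e to −0.0316 with upper-quartile scaling and, without 1 replicate number, to values from −0.0229 to 0.0567. Prodh in MYAZ16.1e ranged from −0.259 to 0.0390 without 1 replicate number. The difference of Prodh in Myc310 was also lost with RLE scaling, DESeq2, no filter or the compared libraries alone (adjusted p from 0.0502 to 0.0776), and without replicate 2 or 3 (0.31 and 0.306).

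In control medium, counts of genes past the threshold fell to 2819 (Myc310), 4759 (LM) and 5054 (LM-LM) against MYAZ with the line as a random block, and to 3662 (LM) and 4096 (LM-LM) with counts summed per line. With Myc310 as a single line in such sums, 1429 genes and 2 members passed against MYAZ. Without line MYAZ12.3i, Asns turned to 0.0301, 0.130 and 0.0929 for Myc310, LM and LM-LM, and without MYAZ6.6g, Glul in LM to 0.0124. The calls of Gpt2 in LM and Got2 in LM-LM were lost under 11 and 10 alternatives, and Glul in LM-LM gained a call under 6.

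In LM against Myc310 the 681 genes became 428 with 10 counts in every library, 1286 with the compared libraries alone, 37 with the line as a random block, 2 with counts summed per line, 1495 without LM1, 451 without LM3, and 188 to 203 without 1 replicate number. 1 member then passed in the compared libraries alone and 1 without LM1. Without LM1, Glud1 turned to −0.126 and Pycr1 to 0.0658, and without LM3, Got2 to −0.00063 and Gpt2 to −0.105.

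In LM-LM against LM the 106 genes became 65 with no filter, 30 with 10 counts in every library, 253 with DESeq2, 59 with the compared libraries alone, 0 with counts summed per line, 0 with the line as a random block, 0 to 0 without 1 replicate number, 596 without LM1, 30 without LM2, 181 without LM3, 18 without LM2-LM and 2063 without LM3-LM. 1 member passed without LM1 and 4 without LM3-LM. Signs turned without LM2 (Asns 0.0535, Prodh −0.0518), LM3 (Got2 0.0745, Gpt2 0.187, Pycr1 0.130, Prodh −0.0308), LM1-LM (Glud1 −0.0263, Gpt2 0.0781, Pycr1 0.0022, Prodh −0.0925), LM2-LM (Glul 0.0021, Aldh18a1 −0.0497) and LM3-LM (Asns 0.0684). Pycr1 ranged from −0.158 to 0.0928 without 1 replicate number.

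In the NDI1 comparison 2236 genes became 898 to 1326 without 1 replicate number and 1480 without MYAZ12.3i control replicate 2, an alternative chosen after seeing the data, and 1 to 2 members passed without 1 replicate number. Got2 ranged from −0.0491 to 0.00038 and Gpt2 from −0.0071 to 0.111. Depth limits Pycr1 most, at 58 to 228 counts in control libraries of the 4 deprived lines.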
